A study of Rattus norvegicus with 12 samples.

Results

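The genes described here belong to the unfolded protein response and to the cell's chaperones: Atf4, Ddit3, Xbp1, Hspa5, Dnajb9, Herpud1, Hspa8 and Hsp90ab1. Their probe sets were chosen by name, as those with 1 of these symbols, and no other, in the platform annotation. A probe set is a group of short probes aimed at one transcript, and one whose standard deviation (SD) over the 12 arrays was at most 0.01 log2 is called unmeasured. The rule found 8 of the 31099 probe sets, for 7 of the 8 genes, out of 14218 genes with such a probe set. Of these, 7 probe sets, for 6 genes, were measured, among 3240 measured probe sets on the array. The probe set of Ddit3 was unmeasured, and Hspa8 had no probe set of its own.

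The values came from whole livers of male Sprague Dawley rats that were 9 weeks old after 28 days on their diet. All rats ate the same purified AIN-93G type of diet, given alone (control), with 0.1% wakame powder or with 1% wakame powder. Wakame is a brown seaweed eaten as food. Arrays came from 4 separate rats per diet. The study kept 6 rats per diet, 3 to a cage, and the labels do not say which cage each rat came from, so cage and diet effects cannot be told apart.

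The unfolded protein response answers a build-up of unfolded protein in the endoplasmic reticulum (ER), where hepatocytes fold the plasma proteins they secrete. The sensors PERK, IRE1 and ATF6 lead to the transcription factors ATF4 and CHOP (Ddit3), to spliced XBP1 and to cleaved ATF6, which raise ER chaperones and the machinery that removes misfolded protein. Cytosolic chaperones such as HSC70 (Hspa8) and HSP90-beta (Hsp90ab1) fold proteins outside the ER and are linked to the separate heat shock response. ATF4 and XBP1 are controlled largely by translation and by splicing, and a probe set that reports the amount of RNA shows neither.

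Most of the array could not be compared, since 27802 of the 31042 probe sets that are not array controls (89.6%) were unmeasured in the sense above. On the 3240 measured ones, arrays of one diet correlated at 0.911 to 0.961. Of the 9 hepatocyte marker genes on the array, Alb, Ttr, Serpina1 and Fgb were among the unmeasured, with brightest probe sets at 14.61, 13.96, 13.87 and 13.75 log2. The other 5, which were measured, averaged 9.04 log2 for Tat to 12.92 log2 for Apoa1. As a sign of RNA integrity, the 3-prime minus 5-prime value of Gapdh averaged 1.05 ± 0.01, 1.08 ± 0.10 and 1.21 ± 0.16 log2 on control, 0.1% and 1% wakame (SD, n = 4 each), and that of beta-actin 2.31 ± 0.13, 2.25 ± 0.15 and 2.38 ± 0.07 log2. In bulk liver, fewer cells of a type and less RNA per cell cannot be told apart.

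Among the members, the cytosolic chaperone Hsp90ab1 fell on the 1% diet by 1 of its 2 probe sets, and no other member passed the test in any comparison. Atf4 lay lower on 1% wakame than on control without passing, and the ER genes Herpud1 and Dnajb9 lay higher on both wakame diets without passing. Hspa5, the main ER chaperone, differed by less than its spread between rats. In these sentences and below, passing means a Benjamini-Hochberg adjusted p under 0.05 in limma's test over all 3240 measured probe sets, with the 3 diets fitted together. For 1% wakame against control 54 probe sets passed (1.67%, with 0.802% lower), and of the 7 member probe sets 1 did, lower. For 0.1% wakame against control 2 passed (0.0617%) and for 1% against 0.1% wakame 0 passed (0%, with 219 at an unadjusted p under 0.05), against 0 of 7 members in each. The test for any difference among the diets called 6 probe sets (0.185%, with 14.2% at an unadjusted p under 0.05) and 0 of 7 members, 5 of them at an unadjusted p under 0.05, and the members' adjusted p ran from 0.0943 to 0.889.

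**Figure D1:**
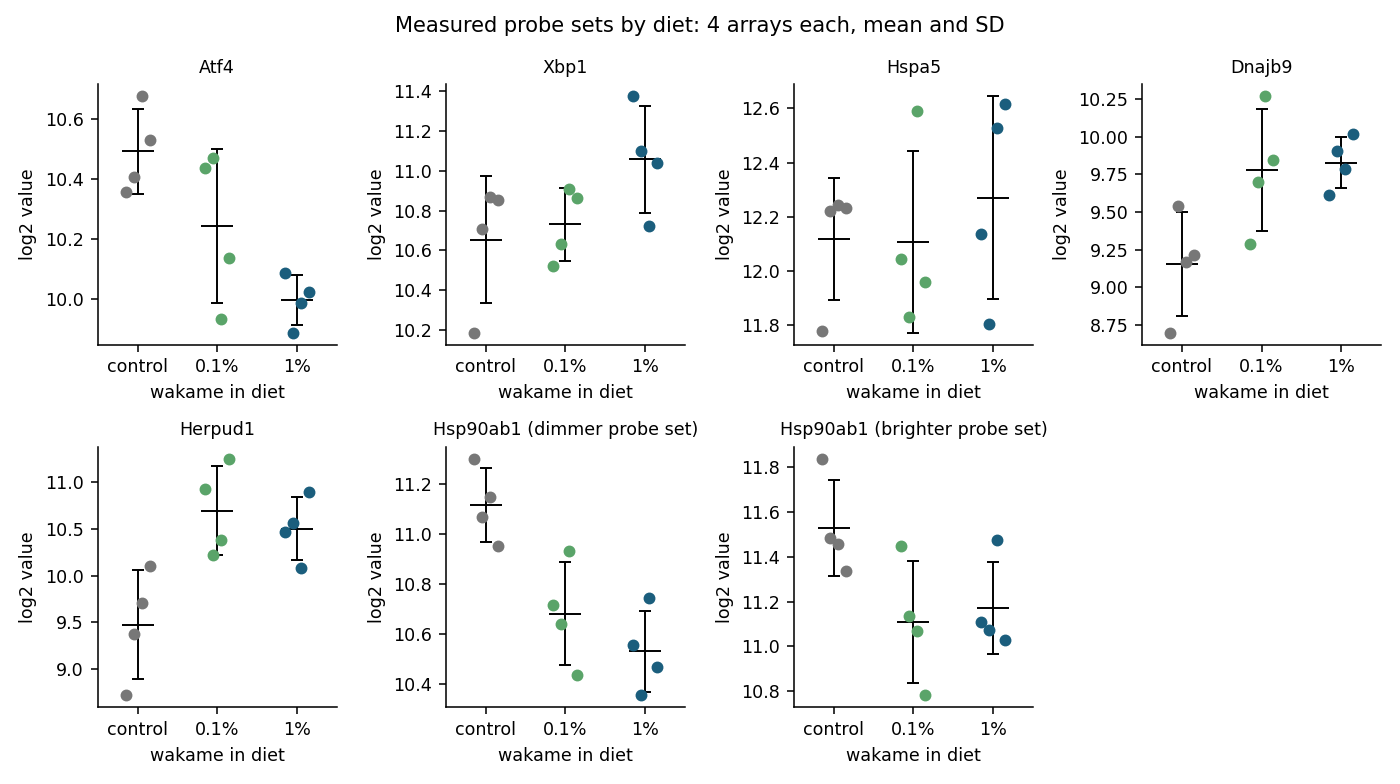
Log2 value of each measured member probe set (vertical axis) by diet (horizontal axis), with 4 points per diet, 1 per rat, and a black bar and whiskers for the mean and SD. The control values of Hsp90ab1 by its dimmer probe set lie above those of both wakame diets, the Atf4 values on 1% wakame lie below those of control, and the diets overlap for Hspa5.

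Atf4 encodes the transcription factor that drives amino acid and stress genes when translation initiation is slowed. Its probe set read 10.09, 9.89, 9.99 and 10.03 log2 on 1% wakame, against 10.36, 10.41, 10.68 and 10.53 on control. The 4 rats on 1% wakame all lay below the lowest control. On 0.1% wakame the values were 10.44, 10.47, 9.93 and 10.14, with one pair inside the control range and the other pair below it. The mean differed by −0.49 ± 0.12 log2 between 1% wakame and control (SE, n = 4 each, 95% interval −0.76 to −0.23), which is 0.710 of the control level and did not pass (limma adjusted p = 0.0703). Under the 22 alternatives it passed in 1 (limma adjusted p 0.0474 to 0.333). That 1 left 0.1% wakame array 3, the lowest of its diet, out of the shared estimate of spread. With a control or 1% wakame array left out, 0 of 8 fits passed (limma adjusted p 0.110 to 0.187). Between 0.1% wakame and control the difference was −0.25 ± 0.12 (adjusted p = 0.482), and between 1% and 0.1% wakame −0.25 ± 0.12 (adjusted p = 0.766), and neither passed. Without 0.1% wakame 3 these were −0.14 and −0.35.

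Ddit3 encodes CHOP, a factor induced late in prolonged ER stress and linked to cell death. Its probe set was listed at 7.25 log2 on all 12 arrays, with an SD of 8.66e-10. How such flat values arose is not given in the sources used here, so they do not show that Ddit3 RNA was equal among the diets.

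Xbp1 encodes the factor whose RNA is cut by IRE1 during ER stress and which supports secretory capacity in liver. Its probe set read 11.38, 11.10, 10.72 and 11.04 log2 on 1% wakame, against 10.18, 10.71, 10.87 and 10.85 on control. The diets overlapped, with 3 of the 4 rats on 1% wakame above every control, and control 1 stood lowest of all. The mean was 0.40 ± 0.18 log2 higher on 1% wakame (SE, n = 4 each, adjusted p = 0.255, interval 0.01 to 0.79). Without control 1 the difference was 0.25 (adjusted p = 0.480). On 0.1% wakame the values of 10.52, 10.63, 10.91 and 10.86 lay around those of control, at a difference of 0.08 ± 0.18 (adjusted p = 0.915, interval −0.31 to 0.47), which became −0.08 without control 1.

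Hspa5 encodes BiP, the ER HSP70 that binds nascent chains and holds the sensors inactive. Its probe set read 12.14, 11.81, 12.53 and 12.62 log2 on 1% wakame, against 11.78, 12.22, 12.24 and 12.23 on control. On 0.1% wakame it read 12.04, 11.83, 12.59 and 11.96. The ranges of the 3 diets overlapped, and 3 controls lay close together while control 1 stood below them. The difference from control was 0.15 ± 0.21 on 1% wakame (adjusted p = 0.765, interval −0.31 to 0.62) and −0.01 ± 0.21 on 0.1% wakame (adjusted p = 0.996, interval −0.48 to 0.45). The value for 1% wakame rested on single rats, at 0.04 without control 1, 0.31 without 1% wakame 2, 0.07 without 1% wakame 3 and 0.04 without 1% wakame 4. The intervals allow changes of up to about 1.53-fold up and 0.806-fold down on 1% wakame. With the Gapdh 3-prime to 5-prime difference as a covariate, the value for 1% wakame was 0.52 ± 0.17 (adjusted p = 0.268), and the part of RNA integrity was otherwise not tested.

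Dnajb9 encodes ERdj4, an ER-resident J-protein that partners BiP and dampens IRE1. Its probe set read 9.61, 9.90, 9.79 and 10.01 log2 on 1% wakame, against 8.70, 9.54, 9.17 and 9.22 on control. Every rat on 1% wakame lay above every control. On 0.1% wakame it read 9.29, 9.70, 10.27 and 9.85, with 3 of 4 rats above every control. The difference from control was 0.67 ± 0.22 log2 on 1% wakame, or 1.59-fold (adjusted p = 0.140, interval 0.20 to 1.15), and 0.62 ± 0.22 on 0.1% wakame, or 1.54-fold (adjusted p = 0.304, interval 0.14 to 1.10). Neither passed. The means of the wakame diets differed by 0.05 ± 0.22 (1% minus 0.1%, adjusted p = 0.991, interval −0.42 to 0.53).

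Herpud1 encodes HERP, a membrane protein of ER-associated degradation, which passes misfolded proteins to the cytosol for the proteasome. It varied most among the members, with an SD over the 12 arrays of 0.70 log2, above that of 92.2% of the measured probe sets. Its probe set read 10.47, 10.56, 10.08 and 10.89 log2 on 1% wakame, against 8.72, 9.38, 9.71 and 10.10 on control. On 0.1% wakame it read 10.92, 10.22, 10.38 and 11.24. All 4 rats on 0.1% wakame and 3 of 4 on 1% wakame lay above the highest control. The difference from control was 1.03 ± 0.31 log2 on 1% wakame, or 2.04-fold (adjusted p = 0.125, interval 0.34 to 1.72), and 1.22 ± 0.31 on 0.1% wakame, or 2.32-fold (adjusted p = 0.196, interval 0.53 to 1.91). Neither passed, and the larger dose was not higher than the smaller one, at −0.19 ± 0.31 (1% minus 0.1%, adjusted p = 0.958).

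The promoters of these ER genes are shown because ER stress elements are defined by letters in such windows. RefSeq's GRCr8 table, which holds 33469 promoters from 250 bases before to 50 bases after the gene's start, had all 8 members. Searched on both strands were the ER stress element ERSE (CCAAT and CCACG with any 9 bases between), ERSE-II (ATTGG and CCACG with any 1 base between), the unfolded protein response element core (TGACGTGG), the cyclic AMP response element (TGACGTCA), a C/EBP-ATF element (TGATGCAA) and the heat shock element (GAA, TTC and GAA with any 2 bases between each). They occurred in 0.0657%, 0.0508%, 0.595%, 1.83%, 0.795% and 0.798% of all promoters. Capitals mark the matches, which did not overlap one another, and each window runs 5′ to 3′ along the gene. Xbp1 (chr14:84604373-84604672, plus strand) and Hspa5 (chr3:38452766-38453065, plus strand) each held 1 ERSE. Herpud1 (chr19:10614658-10614957, minus strand) held 1 ERSE-II and, upstream of it, 1 C/EBP-ATF element on the opposite strand.
Xbp1: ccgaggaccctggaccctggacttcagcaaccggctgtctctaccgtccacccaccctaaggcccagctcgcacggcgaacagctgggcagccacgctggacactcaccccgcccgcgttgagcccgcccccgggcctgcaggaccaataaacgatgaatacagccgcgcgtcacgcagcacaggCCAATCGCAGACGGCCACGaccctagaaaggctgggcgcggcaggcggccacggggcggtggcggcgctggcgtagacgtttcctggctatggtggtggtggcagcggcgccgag
Hspa5: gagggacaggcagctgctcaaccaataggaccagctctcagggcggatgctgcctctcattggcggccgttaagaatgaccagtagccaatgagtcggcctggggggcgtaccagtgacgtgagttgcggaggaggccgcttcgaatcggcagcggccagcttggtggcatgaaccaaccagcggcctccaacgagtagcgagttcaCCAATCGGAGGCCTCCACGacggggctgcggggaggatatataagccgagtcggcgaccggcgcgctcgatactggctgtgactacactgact
Herpud1: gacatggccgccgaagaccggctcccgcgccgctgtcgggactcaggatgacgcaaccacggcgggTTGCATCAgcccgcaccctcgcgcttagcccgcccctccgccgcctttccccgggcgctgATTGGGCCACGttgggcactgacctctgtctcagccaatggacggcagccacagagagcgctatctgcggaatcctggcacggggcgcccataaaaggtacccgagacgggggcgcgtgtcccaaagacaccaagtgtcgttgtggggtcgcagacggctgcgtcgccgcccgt
The windows of Dnajb9, Atf4 and Ddit3 held none of the 6 motifs. A match is a run of letters and not a shown binding site. The ERSE holders Xbp1 and Hspa5 lay 0.40 and 0.15 log2 higher on 1% wakame than on control, while Herpud1, with ERSE-II, lay 1.03 higher and Dnajb9, with none of the 6 motifs, lay 0.67 higher.

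Hsp90ab1 encodes the constitutive cytosolic HSP90, which matures kinases and steroid receptors. By the dimmer of its 2 probe sets it read 10.56, 10.35, 10.74 and 10.47 log2 on 1% wakame, against 11.30, 11.07, 11.15 and 10.95 on control. On 0.1% wakame it read 10.72, 10.64, 10.93 and 10.44. Every rat on either wakame diet lay below every control. It fell by 0.59 ± 0.12 log2 on 1% wakame, to 0.665 of the control level (SE, n = 4 each, limma adjusted p = 0.0472, interval −0.85 to −0.32). On 0.1% wakame the difference was −0.44 ± 0.12, or 0.739 of control, which did not pass (adjusted p = 0.198), and 1% against 0.1% wakame differed by −0.15 ± 0.12 (adjusted p = 0.892). The call at 1% was lost in the fit over all 31042 probe sets (adjusted p = 0.247), with the Gapdh covariate (−0.50, adjusted p = 0.219) and in the fit of these 2 diets alone (adjusted p = 0.0645). It was also lost without any one of control 1 to 4, of 0.1% wakame 1 or 2, or of 1% wakame 1, 2 or 4 (adjusted p up to 0.136), while the difference stayed between −0.64 and −0.53 in those fits.

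The brighter Hsp90ab1 probe set read 11.11, 11.07, 11.48 and 11.03 log2 on 1% wakame, against 11.84, 11.49, 11.46 and 11.34 on control. On 0.1% wakame it read 11.45, 11.14, 11.07 and 10.78. In each wakame diet 3 of 4 rats lay below every control, and 1 overlapped. The difference from control was −0.36 ± 0.16 on 1% wakame (adjusted p = 0.256, interval −0.70 to −0.01) and −0.42 ± 0.16 on 0.1% wakame (adjusted p = 0.349, interval −0.77 to −0.08). The 2 probe sets therefore shared their direction but not the call. The promoter window of Hsp90ab1 (chr9:22930173-22930472, plus strand) is shown beside those of the ER genes because it held no ERSE and no heat shock element in these bases, and 1 cyclic AMP response element.
Hsp90ab1: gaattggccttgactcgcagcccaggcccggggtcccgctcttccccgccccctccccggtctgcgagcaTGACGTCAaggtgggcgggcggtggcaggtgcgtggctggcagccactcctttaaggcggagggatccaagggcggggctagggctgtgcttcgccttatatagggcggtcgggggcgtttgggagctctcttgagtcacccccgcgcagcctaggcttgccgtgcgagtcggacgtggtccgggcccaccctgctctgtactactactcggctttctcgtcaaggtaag

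Hspa8 encodes HSC70, the constitutive cytosolic HSP70. Its only probe set is listed under Hspa8 and Haus8l2 and so lies outside the rule. It read 11.41, 11.20, 12.08 and 12.29 log2 on 1% wakame, against 11.65, 11.66, 11.49 and 12.12 on control, with wide overlap. The signal of that probe set was 0.02 ± 0.25 higher on 1% wakame (adjusted p = 0.981) and differed by −0.06 ± 0.25 on 0.1% wakame (adjusted p = 0.958). The promoter window of Hspa8 held 2 heat shock elements and was the 1 member window with any.

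**Figure D2:**
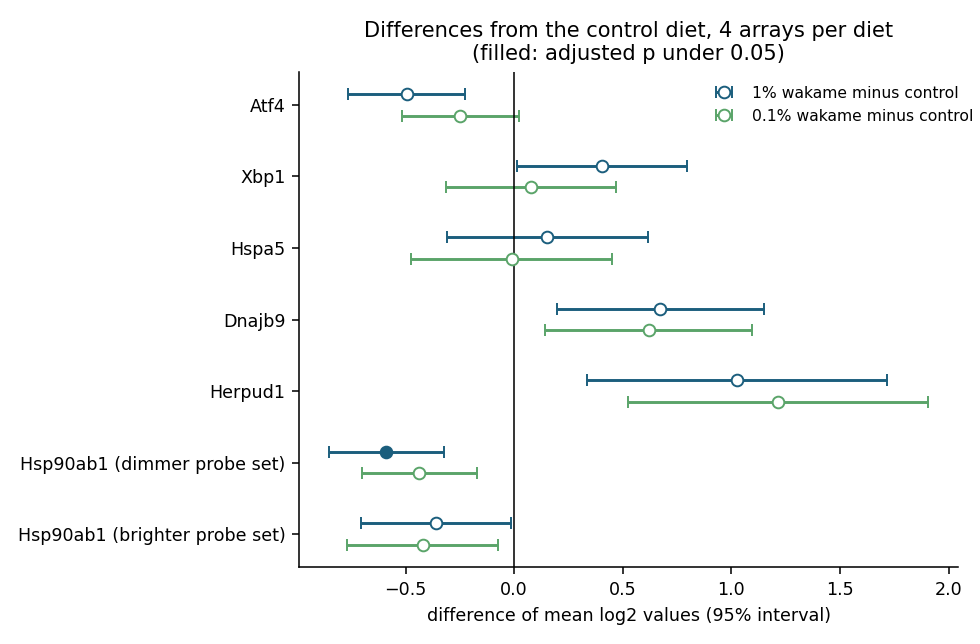
Difference of mean log2 values from control (horizontal axis) for each measured member probe set, with 1% wakame above 0.1% wakame in each row and 95% intervals as whiskers, from 4 arrays per diet. Filled points passed the test, and the 1 filled point is the dimmer Hsp90ab1 probe set on 1% wakame, at −0.59.

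Set side by side, the member probe sets differed from control by a median size of 0.49 log2 on 1% wakame and 0.42 log2 on 0.1% wakame, where the medians over all measured probe sets were 0.15 and 0.12. On 1% wakame 6 of the 7 had an unadjusted p under 0.05, 3 higher and 3 lower, where 18.5% of all measured probe sets did (8.4% higher and 10.1% lower), and the diets did not overlap in 3 of the 7, where they did not in 11.3% of all. On 0.1% wakame the same counts were 4 of 7, where the share of all was 11.5%, and 2 of 7, where it was 5.86%. Between 1% and 0.1% wakame they were 0 of 7, where the share of all was 6.76%, and 0 of 7, where it was 3.77%. Hsp90ab1 enters these counts by 2 probe sets, and both were lower at an unadjusted limma p under 0.05 on each wakame diet against control. Both wakame comparisons use the same 4 control arrays, and the members were picked with earlier results of these arrays known, so these counts describe the members and are no independent support.

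One control array stood out across the members. Control 1 held the lowest or the highest control value in 7 of the 7 measured probe sets, the lowest in Atf4, Xbp1, Hspa5, Dnajb9 and Herpud1 and the highest in both of Hsp90ab1. Over all measured probe sets it was at an end of its diet in 54.0%, and the 12 arrays ranged from 44.1% to 56.8%. Without control 1 the differences between 1% wakame and control were 0.77 for Herpud1, 0.52 for Dnajb9, −0.26 and −0.53 for the 2 probe sets of Hsp90ab1, −0.54 for Atf4, 0.25 for Xbp1 and 0.04 for Hspa5. All 7 directions were kept, and the sizes of Xbp1 and Hspa5 moved by over 1.5 times.

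The 6 measured genes were correlated in pairs over the 12 arrays, each gene by its brightest measured probe set, with permutation tests of 100000 draws adjusted over the 15 pairs. The draws shuffled all 12 arrays regardless of diet. The p-values therefore include differences between the diets, and none was computed for deviations from the diet means. Hsp90ab1 ran against Herpud1 (Pearson r = −0.830, permutation p = 0.00076, adjusted p = 0.0114, Spearman rho = −0.825, permutation p = 0.00149, adjusted p = 0.0223) and against Dnajb9 (r = −0.791, permutation p = 0.00254, adjusted p = 0.0190, rho = −0.769, permutation p = 0.00498, adjusted p = 0.0249). Without the 2 arrays farthest from the median of Herpud1 or of Dnajb9 r was −0.571 and −0.661, without control 1 it was −0.711 and −0.650, and for deviations from the diet means it was −0.656 and −0.609. Hsp90ab1 and Xbp1 gave r = −0.693 (permutation p = 0.0132, adjusted p = 0.0495) and rho = −0.664 (permutation p = 0.0221, adjusted p = 0.0827), with −0.528 without the 2 arrays farthest out, −0.480 without control 1 and −0.809 for deviations from the diet means. Atf4 ran against Dnajb9 (r = −0.736, permutation p = 0.00568, adjusted p = 0.0284, rho = −0.776, permutation p = 0.00403, adjusted p = 0.0249), with −0.702, −0.859 and −0.509 in the same checks. The other 11 pairs had an adjusted Pearson p from 0.0667 to 0.719, among them Herpud1 with Dnajb9 (r = 0.648, permutation p = 0.0222, rho = 0.580, permutation p = 0.0525), which gave 0.452, 0.378 and 0.186 in the same checks, and Hspa5 with Herpud1 (r = 0.165, permutation p = 0.614, rho = −0.007, permutation p = 0.991).

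**Figure D3:**
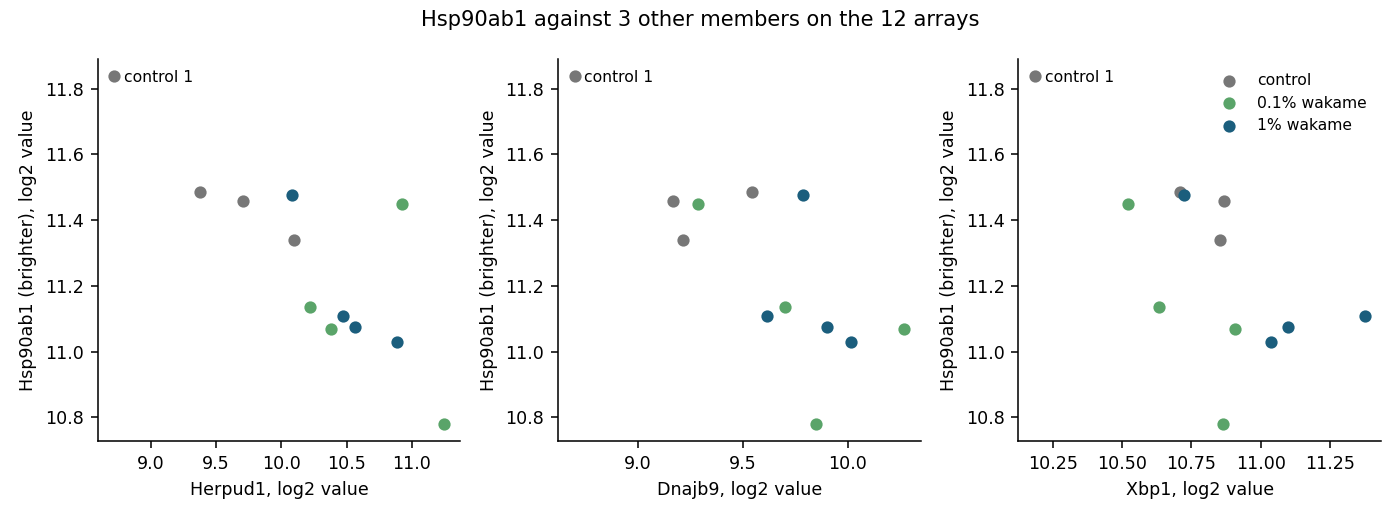
Log2 values of the brighter Hsp90ab1 probe set (vertical axis) against Herpud1, Dnajb9 and Xbp1 (horizontal axes) on the 12 arrays, coloured by diet. Control 1 lies at the upper left of each panel, and the arrays run downward to the right, at r = −0.830, −0.791 and −0.693.

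The genes whose pattern over the 12 arrays was most like each member were taken from 2295 other measured genes, as a description without a test, since all points share their arrays. For Hspa5 they were Manf, an ER-resident stress-induced protein (r = 0.908), and Tfg, of ER exit sites (0.882). For Dnajb9 they were Sec23b, a COPII coat protein that carries cargo out of the ER (0.932), and Golph3l, of the Golgi (0.925). For Herpud1 they were Tsc22d3, a leucine zipper protein induced by glucocorticoids (0.938), and the interleukin-6 receptor Il6r (0.927). For Xbp1 they were the organic anion transporter Slco1a4 (0.887) and the bile salt export pump Abcb11 (0.872), and for Atf4 the chromatin protein Kmt2e (0.982) and Atxn1l (0.936). For Hsp90ab1 they were Mgll, monoacylglycerol lipase (0.915), and Abhd6, another lipid hydrolase (0.897). Of the 10 genes nearest to Hspa5, 5 belonged to the pathway lists described next (Manf, Creld2, Ubxn4, Ssr3 and Chordc1). For Xbp1, Dnajb9 and Hsp90ab1 1 of the 10 nearest did in each case, and of the 10 nearest to Herpud1 and to Atf4 none did. Those lists hold 74 of the 2295 genes (3.22%). That count was made after the values were seen.

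Around the members, 7 lists of related genes held 210 genes, of which 201 are on the array and 74 were measured. None of the 74 passed in any comparison with limma. On 1% wakame 11 had an unadjusted p under 0.05, 6 higher and 5 lower (14.9%, where 18.5% of all measured probe sets did). Their lowest adjusted p was 0.102 on 1% wakame and 0.332 on 0.1% wakame, each against control. The median difference of all measured probe sets was −0.02 log2 in both, which the medians of the lists stand beside.

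Of 19 sensors and transducers of the response, 18 are on the array and 3 were measured, so PERK (Eif2ak3) and ATF6 had no measured value. Creb3l3, a liver ER-bound factor cleaved like ATF6, was at 0.35 ± 0.13 log2 on 1% wakame against control (adjusted p = 0.209), with every rat above every control. Eif2s1, the initiation factor subunit that PERK phosphorylates, was at −0.14 ± 0.15, and Ppp1r15b, which helps to dephosphorylate it, at 0.08 ± 0.15. Of 37 targets of ATF4 and CHOP, 36 are on the array and 12 were measured, 5 higher and 7 lower on 1% wakame, with a median of −0.03 log2, and on 0.1% wakame 7 higher and 5 lower with a median of 0.08. The pro-apoptotic Bcl2l11 was at 1.05 ± 0.30 on 1% wakame (adjusted p = 0.102), Gpt2, an alanine aminotransferase, at 0.25 ± 0.11, the transcription factor Cebpb at −0.66 ± 0.32 and the serine-handling Shmt2 at −0.17 ± 0.09, and none passed.

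Of 36 ER chaperones and folding enzymes on the array 14 were measured, 9 higher and 5 lower on 1% wakame, with a median of 0.02 log2. An unadjusted p under 0.05 was reached by 0 of the 14, where 18.5% of all measured probe sets did. On 0.1% wakame 7 lay higher and 7 lower, with a median of −0.01. Manf was at 0.31 ± 0.23, the disulfide isomerases Pdia5 and Txndc5 at 0.55 ± 0.44 and 0.18 ± 0.15, and the reductase Dnajc10 at −0.17 ± 0.09, on 1% wakame against control. Of 27 genes of ER-associated degradation on the array, 6 were measured, with a median of 0.10 on 1% wakame and 0.02 on 0.1% wakame. Edem1, which directs misfolded glycoproteins to degradation, was at 0.75 ± 0.32 by its brightest probe set (adjusted p = 0.243) and at 0.47 and 0.19 by the other two. Selenok was at −0.44 ± 0.18 with every rat on 1% wakame below every control (adjusted p = 0.228), Selenos at 0.17 ± 0.20 and Ubxn4 at 0.16 ± 0.15. Of 29 genes of the translocon, signal peptidase and ER export on the array, 16 were measured, with medians of −0.02 on 1% and −0.04 on 0.1% wakame. The COPII proteins Sec24d and Sec23b were at 0.23 ± 0.08 and 0.52 ± 0.26, the channel subunit Sec61a1 at 0.14 ± 0.10 and Srp9, of the signal recognition particle, at −0.19 ± 0.18 (−0.05 without 1% wakame 2), all on 1% wakame and none passing.

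In the list of cytosolic chaperones, and in that of chaperonins and mitochondrial chaperones, more measured genes lay lower than higher, and none passed. Of 34 cytosolic heat shock genes and HSP70 or HSP90 partners on the array, 9 were measured, of which 6 lay lower on 1% wakame and 7 on 0.1% wakame, with medians of −0.17 and −0.19 log2. Cacybp was at −0.31 ± 0.16 by its brighter probe set (−0.15 without 1% wakame 2) and −0.84 by its dimmer one, Hspa4l, an HSP110 chaperone, at −0.32 ± 0.17 and Ahsa1, which activates HSP90, at −0.17 ± 0.10. Fkbp5, a co-chaperone of steroid receptors that glucocorticoids induce, lay the other way, at 0.60 ± 0.20 (adjusted p = 0.154). On 1% wakame Fkbp5 was the only 1 of the 9 with an unadjusted limma p under 0.05. So 0 of the 9 were lower at that p, where 10.1% of all measured probe sets were. On 0.1% wakame 0 of the 9 reached it in either direction, where 11.5% of all measured probe sets did. Of 21 chaperonin and mitochondrial chaperone genes on the array 14 were measured, and 12 of them lay lower on 1% wakame and 11 on 0.1% wakame, with medians of −0.19 and −0.12. An unadjusted limma p under 0.05 was reached by 4 of the 14 on 1% wakame, all lower, where 10.1% of all measured probe sets were lower at that p. On 0.1% wakame 1 of the 14 reached it, also lower, where 11.5% of all measured probe sets did in either direction. Hspe1, mitochondrial HSP10, was at −0.38 ± 0.15 (−0.24 without control 1), Hspa9, mitochondrial HSP70, at −0.25 ± 0.09, the chaperonin subunit Cct6a at −0.24 ± 0.11 and the prefoldin subunit Pfdn4 at −0.26 ± 0.11 (adjusted p from 0.201 to 0.264). Every rat on 1% wakame lay below every control in 3 of the 14, Hspe1, Hspa9 and Pfdn4, where the diets did not overlap in 11.3% of all measured probe sets.

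**Figure D4:**
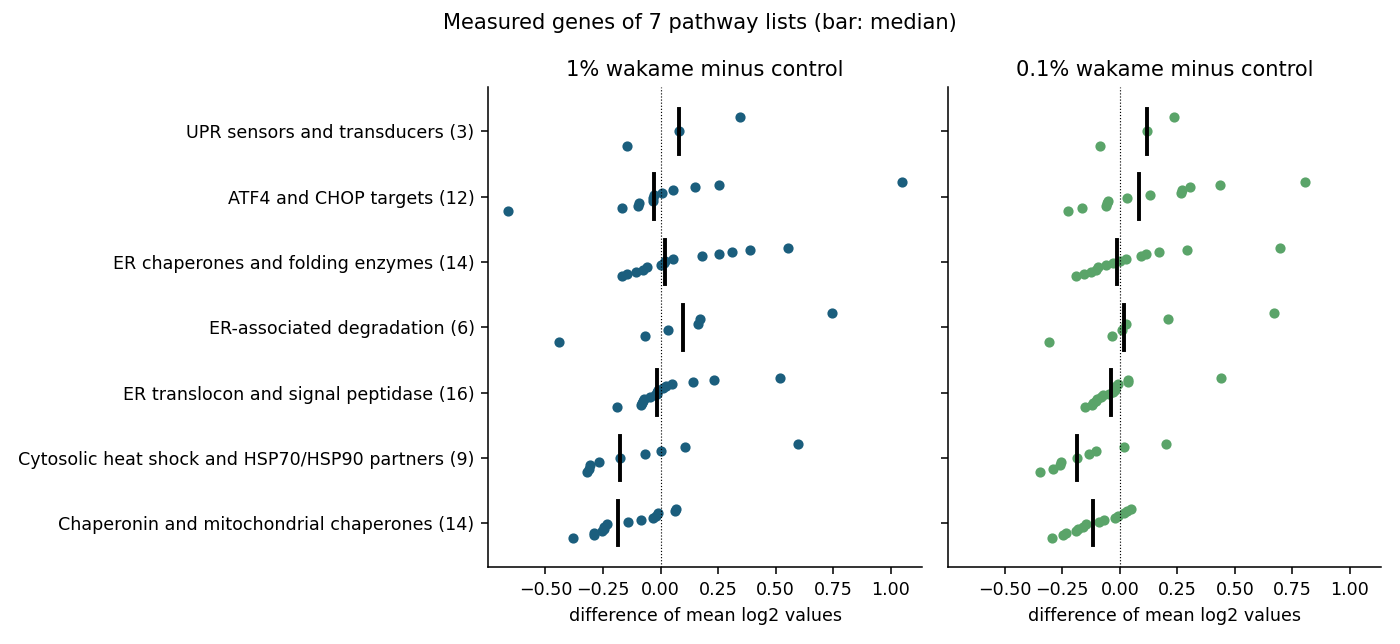
Difference of mean log2 values from control for the 74 measured genes of 7 pathway lists, 1% wakame on the left and 0.1% wakame on the right, with 1 point per gene, a black bar at each list's median and the number of measured genes in parentheses. The medians of the 2 lowest rows are −0.17 and −0.19 on 1% wakame, and those of the other lists lie between −0.03 and 0.10.

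No marker of another liver cell type passed in any comparison, while all 5 measured stellate cell and fibroblast markers of 9 lay higher on 1% wakame than on control, with a median of 0.21 log2, a size near those of the chaperone lists. Among them were the proteoglycan lumican (Lum) at 0.65 ± 0.31 (adjusted p = 0.290) and the collectin Colec11 at 0.21 ± 0.09 (limma adjusted p = 0.243). Lum was dim, at a mean of 6.18 log2 where the median value of an array was about 6.59. Dcn, Col3a1 and Reln were at 0.23 ± 0.22, 0.18 ± 0.19 and 0.16 ± 0.13. On 0.1% wakame against control 3 of the 5 lay higher and 2 lower. Of 5 cholangiocyte markers on the array 0 were measured. Of 8 lymphocyte and plasma cell markers 1 was measured (Jchain), whose value ran from 6.77 to 7.50 log2 on 1% wakame and from 6.52 to 7.40 on control. Of 7 pancreatic acinar markers 1 was measured (Cela1), from 8.65 to 9.37 on 1% wakame and from 8.17 to 9.12 on control. The summed level of the 5 measured macrophage markers of 8 ran from 11.10 to 12.10 log2 on 1% wakame and from 11.25 to 11.92 on control, that of the 5 stellate cell markers of 9 from 11.34 to 11.74 on 1% wakame and from 11.21 to 11.61 on control, and that of the 2 endothelial markers of 5 from 10.27 to 10.46 on 1% wakame and from 10.15 to 10.47 on control. The 2 measured erythroid markers of 3 ran from 10.69 to 12.58 on 1% wakame and from 10.96 to 11.92 on control. The 5 measured hepatocyte markers summed to 14.54 to 14.97 on 1% wakame and 14.35 to 14.60 on control, and did not lie on one side. Tat, tyrosine aminotransferase, was at −1.04 ± 0.48 on 1% wakame against control (adjusted p = 0.280) and at −1.81 ± 0.48 on 1% against 0.1% wakame (adjusted p = 0.498), and Cyp2e1, a cytochrome P450, at 0.67 ± 0.35 on 1% wakame against control (adjusted p = 0.338). On 0.1% wakame against control Cyp2e1 was at 0.90 ± 0.35 (adjusted p = 0.370), the hepatocyte factor Hnf4a at 0.23 ± 0.09 (adjusted p = 0.379) and Tat at 0.77 ± 0.48 (limma adjusted p = 0.596). On 1% wakame against control Hnf4a was at 0.08 ± 0.09. Apoa1 and Cps1, by its brighter probe set, were at 0.05 ± 0.14 and 0.02 ± 0.04 on 1% wakame. On 0.1% wakame they were at −0.03 ± 0.14 and 0.04 ± 0.04, each against control. The part of these cells in the member values was not tested.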

How the data were processed

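Liver RNA of 12 rats was measured on an Affymetrix rat array. Per the labels' protocols, biotinylated cRNA was made from 100 ng of total RNA with a 3-prime kit. The authors deposited 1 table of log2 values, 1 column per array. Values from 3.15 to 14.6 point to log2. Per the submitters' processing notes, R 2.7.2 was used. For background correction, normalization and summarisation the answer is: not given in the sources used here. Without scanner data no probe set has a detection call, and 4 arrays per diet limit the precision.

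Probe sets were named by the platform annotation, 20832 with 1 symbol, of which 20764 had their gene ID in RefSeq's GRCr8 gene table, which also gave current symbols. limma 3.58.1 in R 4.3.3 fitted a mean per diet to the deposited log2 values of the 3240 probe sets with an SD above 0.01, with a variance trend and two-sided tests. This limit drops flat values, and it was set with earlier results of these data known, as were the members, lists and tests. Replicates were numbered as in the labels and were separate rats. Correlations used scipy 1.17.1 and numpy 2.4.6, figures matplotlib 3.10.9. The fit was tested on simulated data. Named genes are all member probe sets, the 4 list genes with the smallest unadjusted p for 1% wakame against control in each list, and the 2 most alike genes per member. Single cell type markers and list genes named beside these were chosen after their values were seen. Alternatives were no SD limit, an SD above 0.1, no trend, 2 normalizations, dim probe sets left out, 1 probe set per gene, replicate number as a block, a Gapdh covariate, 2 diets only and each array left out. Same-numbered arrays did not deviate together (r of deviations −0.115 to 0.0924 over 12 pairs), so the numbers were not taken as pairs.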

Additional observations from a re-analysis of the deposited data

Results flagged for a closer look

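Single arrays stood apart from the other 3 of their diet in 12 of the 102 diet groups of the members and the list genes with the smallest p. Chance gives about 1 in 20 in independent groups, but these groups share their arrays, so that rate is only a rough guide. Among the members, control 1 stood apart for Hspa5, at 11.78 log2 against 12.22 to 12.24 on the other controls. Control 1 was also low for Edem1 (9.98 against 10.69 to 10.80) and high for Hspe1 (12.26 against 11.65 to 11.75). Control 4 was low for Creb3l3 (10.35 against 10.66 to 10.68) and high for Fkbp5 (7.53 against 7.22 to 7.27), and control 2 was low for Cebpb (9.88 against 10.42 to 10.51). On 0.1% wakame array 3 was high for Eif2s1 (9.49 against 8.85 to 8.91) and Sec61a1 (10.39 against 10.13 to 10.16). On 1% wakame array 2 was low for Srp9 (8.41 against 8.94 to 8.97), Cacybp (9.31 against 9.88 to 9.98), Hspa9 (8.67 against 8.85 to 8.87) and Pfdn4 (7.70 against 7.77 to 7.79). Leaving out the array that stood apart, an alternative chosen after seeing the data, moved the difference of its diets by over 1.5 times for Hspa5 (0.04 in place of 0.15), Srp9 (−0.05 in place of −0.19), Cacybp (−0.15 in place of −0.31) and Hspe1 (−0.24 in place of −0.38) on 1% wakame, and for Eif2s1 (−0.24 in place of −0.09) on 0.1% wakame, each against control. Sec61a1 on 0.1% wakame changed sign (−0.03 in place of 0.03), and none of the 12 passed with or without the array.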

How the results depend on the processing

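Of 459 values of member probe sets under an alternative, 433 kept their direction and their side of the threshold. The dimmer Hsp90ab1 probe set on 1% wakame against control passed under 9 of 21 alternatives (limma adjusted p 0.0358 to 0.247). The count of member probe sets called there, 1, was 0 with no SD limit, with the Gapdh covariate and with 2 diets only, and 0 to 2 with an array left out. It was also 0 with 1 probe set per gene, but that fit kept only the brighter Hsp90ab1 probe set and so could not call the dimmer one. The 13 changes of sign were all in differences that did not pass: Hspa5 on 0.1% wakame against control (0.013 with median centring, 0.054 with the Gapdh covariate and −0.17 to 0.080 with an array left out), Xbp1 there (−0.078 to 0.15 with an array left out), and 1% against 0.1% wakame for Dnajb9 (−0.11 to 0.22) and the brighter Hsp90ab1 probe set (−0.046 to 0.18) with an array left out. Among the related genes with an array far from the others, Sec61a1 on 0.1% wakame against control changed sign without 0.1% wakame 3 (−0.029), an alternative chosen after seeing the data. The cause was not tested.

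Over all probe sets, the 54 calls of 1% wakame against control became 9 with no SD limit (6 of them below 1e-06 log2), 10 with 1 probe set per gene, 12 with the replicate block, 4 with the Gapdh covariate and 28 with 2 diets only, and 7 to 49 with an array left out. The 2 calls of 0.1% wakame against control became 5 with no SD limit, all 5 of them below 1e-06 log2. They became 1 with either normalization, 0 with 1 probe set per gene, the replicate block or 2 diets only, and 0 to 8 with an array left out. The 0 calls of 1% against 0.1% wakame became 6 with no SD limit, all 6 of them below 1e-06 log2, and 0 to 1 with an array left out. The 6 calls of any difference became 12 with no SD limit, 13 at an SD above 0.1, 0 with 1 probe set per gene, 1 with the replicate block, 2 with the Gapdh covariate and 2 to 19 with an array left out. The replicate block changed no call of a member; 1 of 12 arrays correlated best with an array of its own number. Quantile normalization and centring shifted the median difference between diets by under 0.1 log2.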
